A study of Homo sapiens with 6 samples.

Results

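The Kruppel-like factors (KLFs) are zinc finger transcription factors, and 10 of them, KLF2, KLF3, KLF4, KLF5, KLF6, KLF7, KLF9, KLF10, KLF11 and KLF13, were followed in A549 cells exposed to DAMTC. Every bead-array probe whose platform-annotation symbol is 1 of these 10 was taken, which gave 18 probes for 10 of the 18665 genes named on the array. These genes were proposed with the DAMTC contrast of these same arrays already known. Their differences, intervals, calls and adjusted p-values below are therefore a description of these arrays and support nothing by themselves. Most of the family was detected, and its members did not move in 1 direction: KLF2 and KLF13 were lower with DAMTC, KLF3 and KLF4 were higher, and the other 8 tested probes did not pass.

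A549 is an established human lung adenocarcinoma line. A549 cells given DAMTC, a compound known here only by this code, at 160 µg/ml for 24 h (3 arrays) were set against A549 control cells (3 arrays), whose vehicle the labels do not name. No genetic change is stated for either group. The triplicates are labelled as biological, but no label ties them to separate cultures, and the p-values thus reflect array-to-array spread that may be technical. The 6 arrays shared 1 chip, where DAMTC took the last positions and control the first, and chip position and treatment cannot be told apart.

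KLFs share a carboxy-terminal array of C2H2 zinc fingers that reads CACCC elements and related GC-rich DNA, and they differ in the amino-terminal part that recruits partners. KLF2, KLF4, KLF5, KLF6 and KLF7 are grouped together and bind coactivators. KLF3 recruits the corepressor CtBP. KLF9, KLF10, KLF11 and KLF13 contact the corepressor SIN3A. In mouse, Klf2 and Klf5 are needed for the lung to mature before birth, and KLF4 is known for growth arrest in epithelia.

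The arrays had 16329 to 17058 probes above background with DAMTC and 17357 to 17835 in controls, at a median of 36 to 38 beads a probe. On the first principal component, with 61.8% of the variance, the groups separated, and on the second, with 23.0%, control replicate 1 stood apart. Of 12 lung epithelial and A549 genes with a probe, 8 were detected on all 6 arrays, among them KRT8, KRT18, EPCAM and ALDH1A1, while SFTPB, a surfactant protein, and AKR1C1 were detected on none. Of 7 markers of leukocytes, fibroblasts and endothelium, PTPRC, CD3E, COL1A2 and VWF were detected on none, and CD14 and PECAM1 on all 6. The summed background-subtracted intensity of the 7 ranged from 114.4 to 150 with DAMTC and from 169.1 to 414.1 in controls, and its part in the results was not tested.

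Promoter sequences are shown for KLF2, KLF13 and KLF4, the members whose calls fell or rose and for which RefSeq (GRCh38.p14) gave an entry. KLF3 and KLF10 are named only. Each entry runs from 250 bases before to 50 bases after the annotated start, 300 bases in all, 5′ to 3′ on the gene's strand. The KLF2 promoter is chr19:16324576-16324875 (plus strand), that of KLF13 is chr15:31326585-31326884 (plus strand) and that of KLF4 is chr9:107489720-107490019 (minus strand). Capitals mark matches on either strand to the GC box GGGCGG, the CACCC box CACCC and a loose form of the MEF2 core. That form was taken as CTA and TAG with 4 bases of any kind between them.
KLF2: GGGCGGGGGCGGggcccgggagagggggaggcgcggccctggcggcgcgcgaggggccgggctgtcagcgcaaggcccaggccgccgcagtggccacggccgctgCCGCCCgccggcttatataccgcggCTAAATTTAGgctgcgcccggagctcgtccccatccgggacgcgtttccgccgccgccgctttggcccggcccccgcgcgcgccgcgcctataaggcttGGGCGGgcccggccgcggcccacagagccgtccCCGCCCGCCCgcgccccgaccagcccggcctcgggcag
KLF13: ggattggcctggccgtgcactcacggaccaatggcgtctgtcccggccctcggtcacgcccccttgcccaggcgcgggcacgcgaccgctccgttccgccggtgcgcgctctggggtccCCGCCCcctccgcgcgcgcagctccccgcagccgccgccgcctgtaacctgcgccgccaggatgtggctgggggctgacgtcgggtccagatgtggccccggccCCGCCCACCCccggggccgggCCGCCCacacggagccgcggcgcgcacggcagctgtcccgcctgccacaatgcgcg
KLF4: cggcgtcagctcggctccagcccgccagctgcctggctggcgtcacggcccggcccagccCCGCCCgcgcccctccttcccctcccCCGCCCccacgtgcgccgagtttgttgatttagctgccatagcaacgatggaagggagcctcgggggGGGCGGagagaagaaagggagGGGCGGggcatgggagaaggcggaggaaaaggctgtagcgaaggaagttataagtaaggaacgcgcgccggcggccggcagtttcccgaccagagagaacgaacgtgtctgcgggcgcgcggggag

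All 3 windows were GC-rich, with 80.7% G or C for KLF2, 78.3% for KLF13 and 69.0% for KLF4, against a median of 58.7% over 35116 promoter entries. The GC box, read by SP1 and by KLFs, stood 6 times in the KLF2 window, 3 times in that of KLF13 and 4 times in that of KLF4, and 45.0% of all entries hold at least 1. The CACCC box, which 59.9% of all entries hold, was found only in the KLF13 window of these 3, where its 1 match overlapped a GC box. KLF2 held 1 match to the MEF2 core, at position -120 from the start, and 2.73% of all entries hold such a match. Among the members' other entries, 1 of the KLF11 entries also matched this loose pattern, at position -18. It has GCGG between CTA and TAG, where KLF2 has AATT. The search did not require A or T there, so the 2.73% counts matches of both kinds. MEF2 factors, activated by the kinase ERK5 (gene MAPK7), are known to drive KLF2 in endothelium. These matches are letters in a window and show no binding.

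Of the 18 probes, 12 passed the detection filter, a deposited detection p under 0.05 on 3 or more arrays, and were tested, and they stand for 9 genes. Of the 12, 9 were detected on all 6 arrays. Called here means an adjusted p under 0.05 in limma's fit over all 13762 probes that passed. Among the 12, 2 were called higher and 2 lower, while 24.5% of all probes tested were called, 12.3% higher and 12.2% lower. The groups did not overlap for 5 of the 12 probes, against 41.2% of all probes tested. The median difference of the 12 was 0.05 on the log2 scale and that of all probes -0.02, and the median absolute differences were 0.53 and 0.52. By gene, with 1 probe each, 24.9% of 10779 genes were called. Nothing is read from these counts, since the genes were proposed with the contrast in view and a probe could pass through its brighter group alone.

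**Figure D1:**
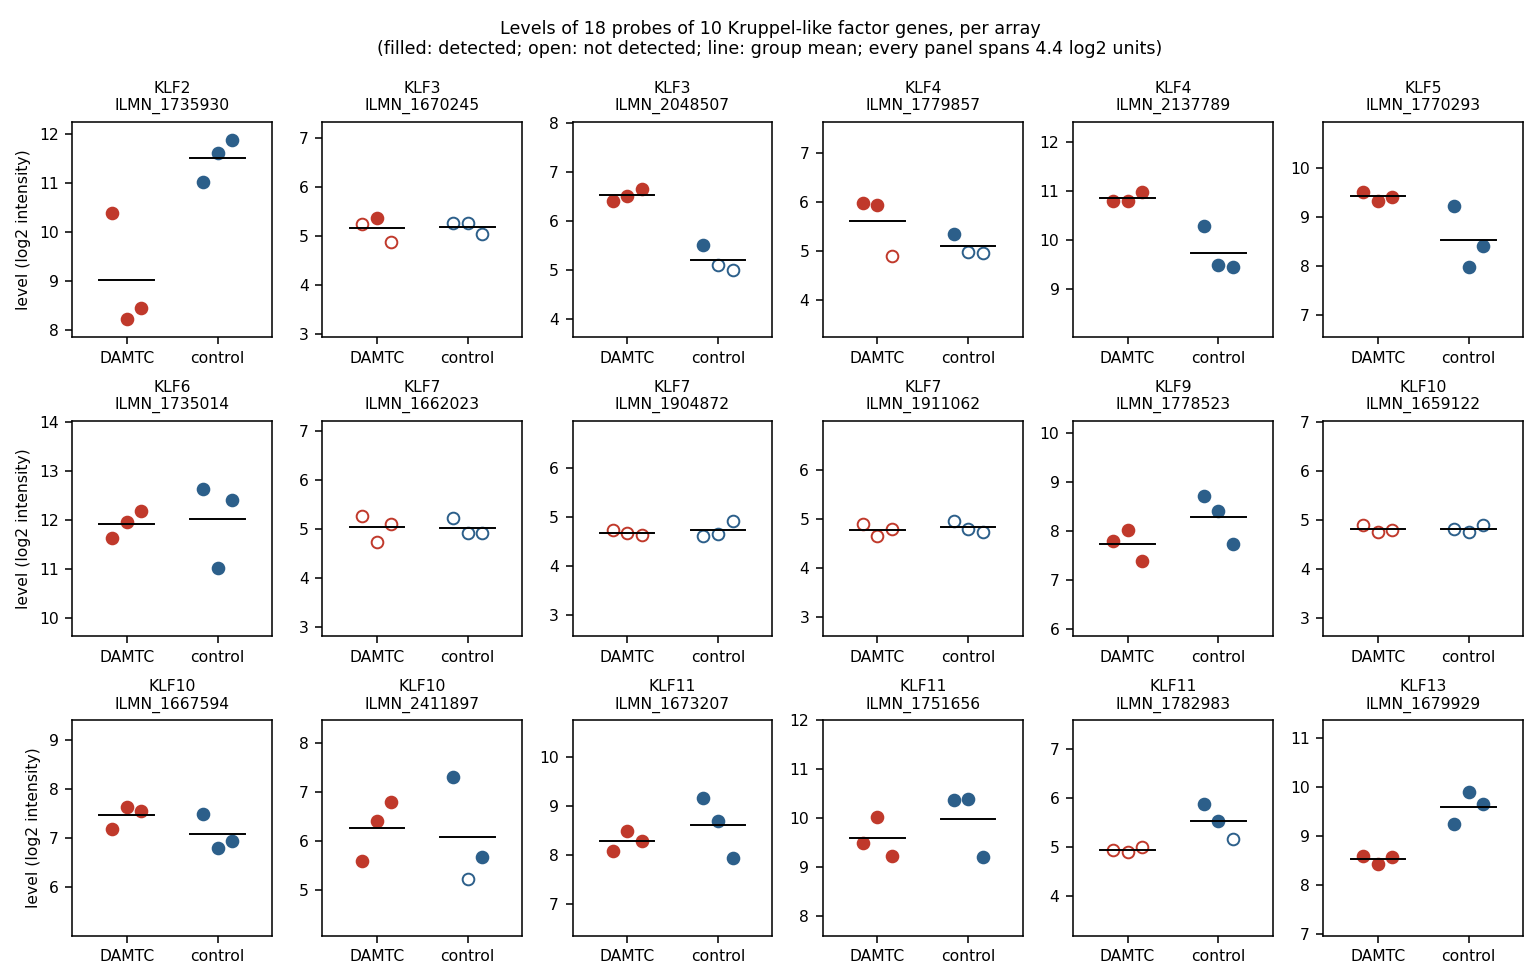
Normalized level (log2 intensity) of the 18 probes on each array, with 3 DAMTC arrays (red) left of 3 control arrays (blue); filled points were detected, open points were not, lines are group means, and all panels span the same log2 range at different levels. The KLF2 and KLF13 points with DAMTC all lie below the control points, those of KLF4 ILMN_2137789, KLF3 ILMN_2048507 and KLF5 all lie above, and all 3 KLF7 probes are open throughout.

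KLF2, a regulator of quiescence in endothelium and T cells, had the largest difference of the family. Its probe read a mean bead intensity of 1224, 404 and 432 in DAMTC replicates 1, 2 and 3, against 2220, 3368 and 4559 in control replicates 1, 2 and 3. The groups did not overlap, and DAMTC replicate 1 lay far above the other DAMTC arrays. The standard error over beads was 3.80% to 5.09% of the intensity on each array, which covers bead noise within an array and not the spread between arrays. On the normalized log2 scale the level averaged 9.01 ± 1.19 with DAMTC and 11.50 ± 0.44 in controls (SD, n = 3 each). The difference was -2.48 ± 0.54 (SE), a 5.60-fold fall (limma, adjusted p = 0.0107). Without DAMTC replicate 1 the difference was -3.16 (limma, adjusted p = 0.00235). Without each other array it lay between -2.75 and -2.08 (limma, adjusted p = 0.00705 to 0.0490). With no detection filter the adjusted p was 0.0489 in limma. As these are bulk RNA values, fewer cells with the transcript and less of it per cell cannot be told apart.

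KLF4, a factor of epithelial differentiation and growth arrest, was higher by 1 of its 2 probes. ILMN_2137789 read 1600, 1894 and 1999 with DAMTC, against 1413, 897 and 968 in controls. All DAMTC arrays were above all control arrays, and control replicate 1 was the nearest to them. The level was 10.86 ± 0.10 with DAMTC and 9.74 ± 0.47 in controls (log2, SD, n = 3 each), a 2.17-fold rise (difference 1.12 ± 0.29 SE, limma adjusted p = 0.0230). That call was lost without each of DAMTC replicates 1, 2 and 3 and control replicates 2 and 3 (limma, adjusted p = 0.0658 to 0.0931), and with arrays scaled to the same median (adjusted p = 0.0511), not normalized (0.0557) or read from the deposited matrix without further normalization (0.0652). The second KLF4 probe, ILMN_1779857, lay near background, detected on 2 DAMTC arrays and 1 control array, and its difference was 0.51 ± 0.34 (adjusted p = 0.311).

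KLF5, which in mouse acts in the respiratory epithelium and is often linked with growth, did not pass. It read 722, 750 and 746 with DAMTC and 762, 408 and 548 in controls. Control replicate 1 was as bright as the DAMTC arrays before normalization. After it the groups did not overlap, at 9.43 ± 0.10 with DAMTC and 8.55 ± 0.64 in controls (log2, SD, n = 3 each). The difference was 0.88 ± 0.33 (SE), with a 95% interval from 0.12 to 1.64 and an adjusted p of 0.0887 in limma. Without control replicate 1 the difference was 1.23 (limma, adjusted p = 0.00572). Without each other array it lay between 0.60 and 0.92 (limma, adjusted p = 0.176 to 0.242). KLF5 was called in 2 of 23 alternatives.

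KLF6, described as a tumour suppressor, had overlapping groups. Its intensity was 2875, 4133 and 4698 with DAMTC and 5869, 2329 and 6568 in controls. The spread lay among the controls, where replicate 2 was the dimmest of the 6 arrays and replicate 3 the brightest. The difference was -0.09 ± 0.42 on the log2 scale (95% interval -1.03 to 0.85, limma adjusted p = 0.899). KLF7, closely related to KLF6, had 3 probes, and none was detected on any of the 6 arrays.

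KLF3, the member that represses through CtBP, had 2 probes that differed in what they showed. ILMN_2048507 read 175, 209 and 217 with DAMTC, where it was detected on all 3 arrays, and 167, 154 and 150 in controls, where it was detected on replicate 1 alone. The groups did not overlap, by a narrow margin on the intensity scale. After background correction the level was 6.53 ± 0.13 with DAMTC and 5.21 ± 0.28 in controls (log2, SD, n = 3 each), a difference of 1.32 ± 0.25 (SE, limma adjusted p = 0.00609). The probe passed the filter mainly through DAMTC, and this fit rests in part on control values below detection. The difference was 0.48 with no background correction and 1.98 with the deposited background-subtracted values. With dim values raised to the lowest signal detected on their array, a setting added once the data had been seen, it was 1.18. The other probe, ILMN_1670245, read 135, 162 and 143 with DAMTC and 158, 161 and 152 in controls. It was detected on DAMTC replicate 2 alone and was not tested.

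KLF13, known in T cells as an activator of the chemokine gene CCL5, fell. Its probe read 426, 452 and 461 with DAMTC, against 761, 1142 and 1094 in controls. The groups did not overlap. The level was 8.53 ± 0.08 with DAMTC and 9.60 ± 0.34 in controls (log2, SD, n = 3 each), a 2.10-fold fall (difference -1.07 ± 0.26 SE, limma adjusted p = 0.0173). The call was lost without each of DAMTC replicates 1, 2 and 3 and control replicates 2 and 3 (limma, adjusted p = 0.0542 to 0.0754), while the difference stayed between -1.26 and -0.92. CCL5 itself differed by -0.06 ± 0.90 (adjusted p = 0.971), with a wide spread in each group.

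KLF9, a factor induced by glucocorticoids and thyroid hormone, read 290, 365 and 274 with DAMTC and 569, 500 and 386 in controls. The intensities did not overlap, but the normalized levels did, and the difference was -0.56 ± 0.32 (95% interval -1.28 to 0.17, limma adjusted p = 0.244). It kept its sign in all 23 alternatives and was called in 0 of them, with adjusted p from 0.0574 to 0.552.

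KLF10 and KLF11 were first described as early genes induced by TGF-beta, and neither passed by any probe. KLF10 ILMN_1667594 read 226, 305 and 292 with DAMTC and 310, 248 and 275 in controls, with a difference of 0.38 ± 0.28 (limma adjusted p = 0.364). KLF10 ILMN_2411897 differed by 0.20 ± 0.53 (adjusted p = 0.828), and there control replicate 1, at 286, was the brightest of the 6 arrays. The remaining KLF10 probe was not detected on any array. KLF11 ILMN_1751656 read 709, 1134 and 664 with DAMTC and 1488, 1557 and 837 in controls, and the groups overlapped. Its difference was -0.41 ± 0.38 (adjusted p = 0.483), and ILMN_1673207 differed by -0.31 ± 0.33 (adjusted p = 0.548). The remaining KLF11 probe, ILMN_1782983, was detected on control replicates 1 and 2 and on 0 DAMTC arrays. It was not tested, and its level was at least 1.15-fold lower with DAMTC.

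**Figure D2:**
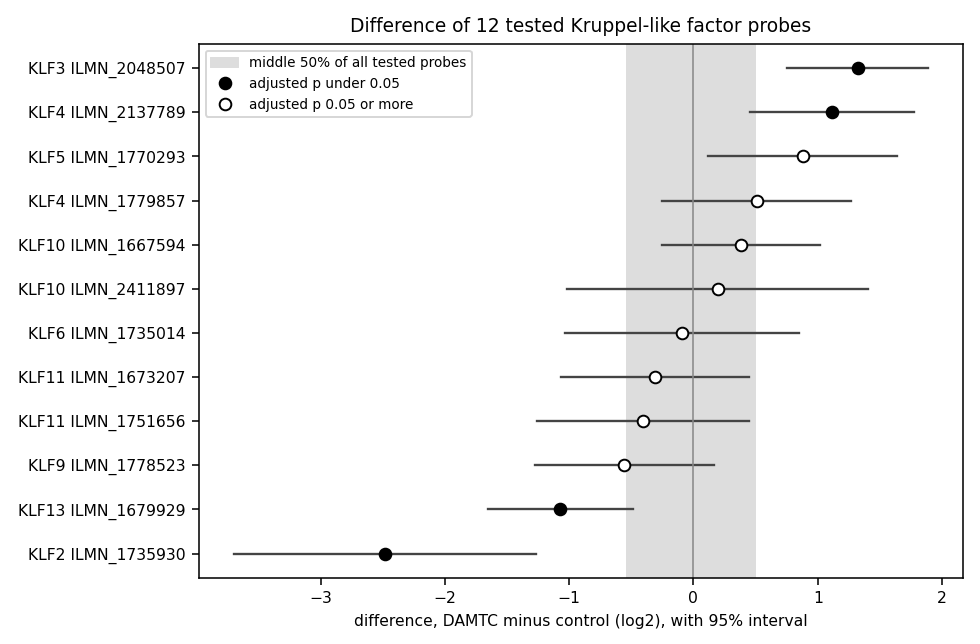
Difference between DAMTC and control (log2) of the 12 tested probes with its 95% interval from limma, ordered by size; filled points had an adjusted p under 0.05 and the grey band holds the middle 50% of all tested probes. Of the filled points, KLF2 at -2.48 and KLF13 at -1.07 lie below the band, and KLF3 ILMN_2048507 at 1.32 and KLF4 ILMN_2137789 at 1.12 lie above it. The band does not mark which probes were called, and KLF5, an open point, is at 0.88.

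Grouped by partner, the tested coactivator-binding members held 1 fall (KLF2), 1 rise (KLF4) and 2 genes that did not pass (KLF5 and KLF6). The SIN3A-binding members held 1 fall (KLF13) and 3 genes that did not pass (KLF9, KLF10 and KLF11), and the CtBP-binding KLF3 rose by 1 of 2 probes. Among all genes tested, 24.9% were called, and nothing is read from this grouping. The 4 calls kept their direction in every alternative in which the probe was tested.

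**Figure D3:**
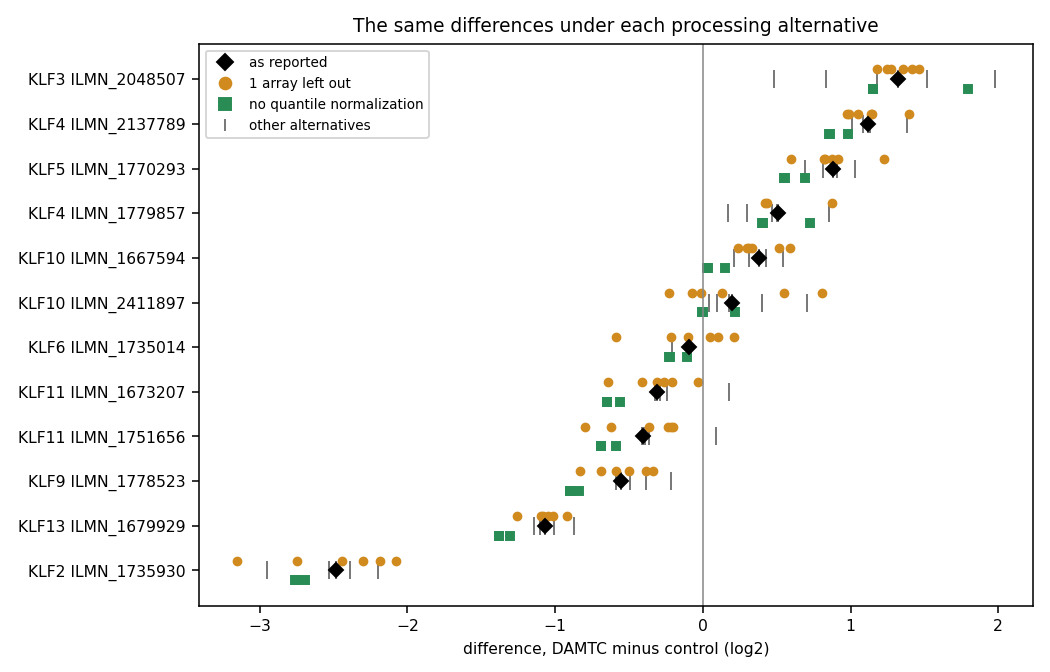
The 12 differences (DAMTC minus control, log2) as reported (diamonds), with 1 array left out (circles), without quantile normalization (squares) and under the other alternatives (ticks). KLF2 ranges from -3.16 to -2.08 and KLF13 from -1.38 to -0.87, KLF4 ILMN_2137789 from 0.85 to 1.40 and KLF3 ILMN_2048507 from 0.48 to 1.98, while KLF6, both KLF11 probes and KLF10 ILMN_2411897 have values on either side of 0.

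Outside the 10 members, 7 other KLF genes had a probe. KLF8 and KLF12, CtBP-binding relatives of KLF3, differed by 0.41 ± 0.28 (limma adjusted p = 0.320) and -0.15 ± 0.35 (adjusted p = 0.802), and KLF15 by 0.04 ± 0.24 (adjusted p = 0.922). KLF1, KLF14, KLF16 and KLF17 were not detected on any array and not tested, and KLF18 had no probe. Of the SP factors, which bind the same GC boxes through related zinc fingers, 6 were tested, 1 fell and 0 rose, while 12.8% of all 10779 genes tested fell and 12.1% rose. SP1, the founding member, fell (difference -0.86 ± 0.25, adjusted p = 0.0336), and this call was lost without each of DAMTC replicates 1, 2 and 3 and control replicates 2 and 3. SP2 (0.38), SP3 (-0.16), SP5 (0.58) and SP6 (0.25) did not pass, and SP7 and SP8 were not tested, with SP9 lacking a probe. SP4 differed by 1.06 ± 0.45 (adjusted p = 0.119) by 1 probe and by 1.38 ± 0.39 (adjusted p = 0.0313) by another.

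Of 9 tested genes for corepressors and coactivators, 1 rose and 0 fell, while 12.1% of all 10779 genes tested rose and 12.8% fell. HDAC3, a histone deacetylase, rose (1.79 ± 0.24, adjusted p = 0.00124), while SIN3A differed by 0.56 ± 0.25 (adjusted p = 0.139) and CTBP1 by -0.67 ± 0.36 (adjusted p = 0.218). Of 9 tested ubiquitin ligases, several of which mark KLF proteins for degradation, 2 rose and 2 fell, beside the same shares of all genes. FBXW7, the substrate receptor for KLF5, rose (1.63 ± 0.25, adjusted p = 0.00245; a further probe read 0.26, adjusted p = 0.567), and SMURF1 rose by 0.75 ± 0.24 (adjusted p = 0.0476). SMURF1 was called in 10 of 23 alternatives. ITCH fell (-2.22 ± 0.24, adjusted p = 5.24e-04), and WWP1, a ligase for KLF2 and KLF5, fell (-0.82 ± 0.23, adjusted p = 0.0312). The SMURF1 and WWP1 calls were lost without each of DAMTC replicates 1, 2 and 3 and control replicates 2 and 3.

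The upstream genes of KLF2, the ERK5 kinase cascade and the MEF2 factors, held 3 rises and 0 falls among 5 tested. Of all genes tested, 12.1% were called higher and 12.8% lower. The list's median difference was 1.33. This list, like the other related lists, was chosen with earlier results of these data known. Nothing is read from its counts or its median. MEF2A rose (level 7.91 ± 0.19 with DAMTC and 5.14 ± 0.23 in controls, log2, SD, n = 3 each; difference 2.78 ± 0.25, limma adjusted p = 2.60e-04). It was detected on 3 DAMTC arrays and 1 control array, so it passed the filter mainly through DAMTC, and its difference lay between 1.28 with no background correction and 3.61 with the deposited values quantile normalized. MAPK7, which encodes ERK5, rose (1.83 ± 0.39, adjusted p = 0.00969). A further MAPK7 probe was not detected on any control array, so it passed the filter through DAMTC alone. It was at least 1.77-fold higher with DAMTC. Its fitted difference of 1.15 ± 0.25 (limma, adjusted p = 0.0114) rests on control values below detection and adds no support to the MAPK7 rise. MAP3K3, an upstream kinase of the cascade, rose (1.33 ± 0.26, adjusted p = 0.00709). MAP2K5, the kinase between them, differed by -0.77 ± 0.33 (limma, adjusted p = 0.123) and was called lower with median scaling and with no normalization. A further MAP2K5 probe differed by -0.81 ± 0.29 (limma, adjusted p = 0.0710), with groups that did not overlap. MEF2D differed by -0.09 ± 0.34 (limma, adjusted p = 0.877).

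Of 6 tested genes of the TGF-beta and SMAD axis, which induces KLF10 and KLF11, 1 fell and 0 rose. Among all 10779 genes tested, 12.8% fell and 12.1% rose. SMAD3, a receptor-activated SMAD, fell (-1.74 ± 0.32, adjusted p = 0.00540), and the list's median was -0.58. SKIL, a SMAD corepressor, differed by 1.66 ± 0.54 (adjusted p = 0.0523) with groups that did not overlap, and by 1.10 ± 0.37 (adjusted p = 0.0583) at a further probe. The first SKIL probe was called in 4 of 23 alternatives, among them that without control replicate 1. Of 6 tested genes of the glucocorticoid axis, which induces KLF9, 1 rose and 2 fell, beside the same shares of all genes. FKBP5, a chaperone of the receptor, rose (1.33 ± 0.30, adjusted p = 0.0125; adjusted p = 0.0614 without DAMTC replicate 2). The receptor gene NR3C1 fell (-1.45 ± 0.36, adjusted p = 0.0197) and so did the phosphatase DUSP1 (-1.43 ± 0.31, adjusted p = 0.0110). The NR3C1 call was lost without DAMTC replicate 1 or 3, and that of DUSP1 without DAMTC replicate 3.

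Of 17 tested genes reported elsewhere as KLF targets, 3 rose and 2 fell, with a median of -0.06, and 24.9% of all genes tested were called in either direction. CDKN1C, a cyclin-dependent kinase inhibitor, was not detected on any control array and passed the filter through DAMTC alone. It was at least 3.19-fold higher with DAMTC. Its fitted difference, 1.92 ± 0.31 (limma, adjusted p = 0.00301), rests on control values below detection, so its place among the 3 rises supports nothing. CDKN1B, another such inhibitor, fell (-0.96 ± 0.28, adjusted p = 0.0349), and this call was lost without each of DAMTC replicates 1, 2 and 3 and control replicates 2 and 3. A further CDKN1B probe differed by -0.43 (adjusted p = 0.277). CCNE1, cyclin E1, rose (1.40 ± 0.35, adjusted p = 0.0194) and a further probe read 1.46 (adjusted p = 0.0119). The call by the first CCNE1 probe was lost without DAMTC replicate 1, 2 or 3. ATF3, a stress factor that KLF6 can bind, rose (1.24 ± 0.38, adjusted p = 0.0419) and was called in 8 of 23 alternatives, and in 1 of the 6 that left out an array, that without control replicate 1. CDH1, E-cadherin, a target of KLF4 and KLF6, fell (-1.64 ± 0.42, adjusted p = 0.0227), and its call was lost without DAMTC replicate 1 or control replicate 3. CDKN1A, the p21 gene that KLF4 and KLF6 activate, differed by 0.38 ± 0.33 (adjusted p = 0.455), and CCND1, cyclin D1, by -0.17 ± 0.33 (adjusted p = 0.754).

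**Figure D4:**
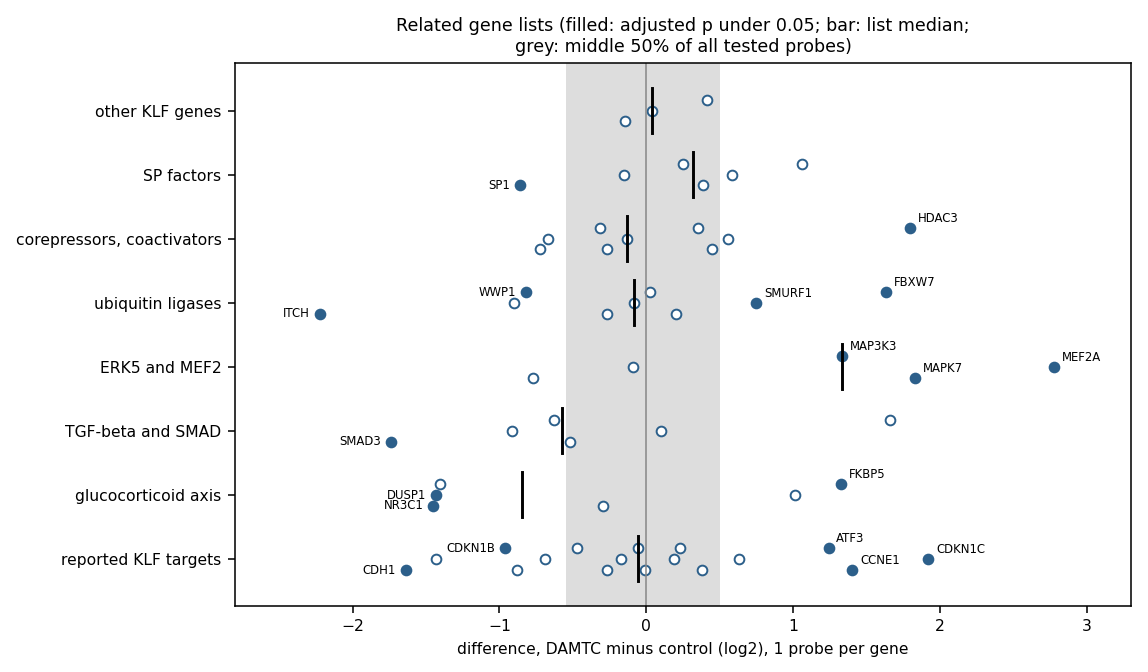
Difference between DAMTC and control (log2) of each tested gene in 8 related lists, 1 probe a gene, with filled points for an adjusted p under 0.05, bars at the list medians and a grey band for the middle 50% of all tested probes. The ERK5 and MEF2 list has its median at 1.33, with MEF2A at 2.78 (detected on 1 control array, and 1.28 to 3.61 under the alternatives), and the SMAD3 and ITCH points lie below the band. The lists were chosen with earlier results of these data known, and nothing is read from their medians.

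The genes whose 6-array pattern was nearest to KLF2, by the root-mean-square distance between levels centred on each probe's mean, were BLOC1S4 (distance 0.39), HOXB8 (0.40), CEBPB (0.41), TRIM47 (0.42) and SLC6A9 (0.43). All 5 were lower with DAMTC, by 1.85 to 2.36 on the log2 scale, and in each DAMTC replicate 1 lay nearest to the controls. The genes nearest to KLF3 ILMN_2048507 were TBC1D20 (0.07), ALKBH1 (0.09), EPC1 (0.09), MAP1A (0.10) and PIK3C3 (0.10), with differences from 1.17 to 1.33. These lists describe 6 arrays and were chosen by likeness over the same contrast.

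**Figure D5:**
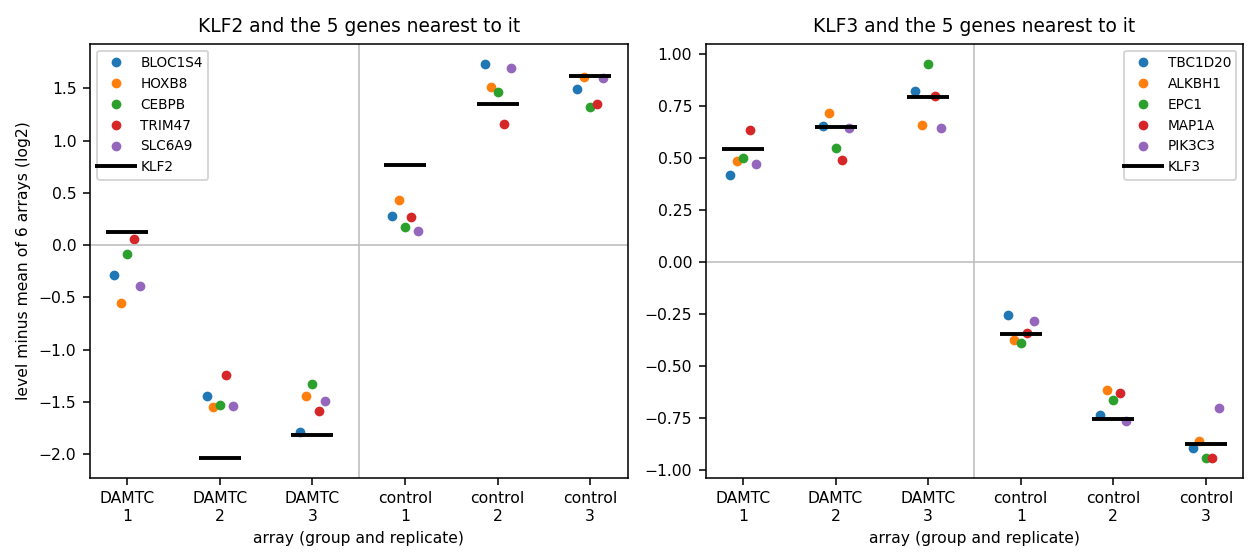
Level minus the mean of the 6 arrays (log2) for KLF2 and its 5 nearest genes (left) and for KLF3 ILMN_2048507 and its 5 nearest genes (right), DAMTC arrays left of control arrays. In the left panel DAMTC replicate 1 lies between the other DAMTC arrays and the controls for all 6 genes, and in the right panel the 3 DAMTC arrays lie together.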

How the data were processed

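RNA of 6 A549 arrays, 3 DAMTC and 3 control, grouped by sample title, was read from the deposited bead table. Per the file headers it gives a mean bead intensity, neither background-subtracted nor scaled, a detection p-value, a count of beads (the deposited number of beads per probe) and the standard error over beads, used as a deposited score. BeadStudio, of unstated version, is named per the submitters' processing notes. The deposited matrix intensity is a straight line of the same values (largest residual 0.0107) after an offset of 118.9 to 140.6, and served as an alternative. Its column medians were 8.992, 8.696 and 9.167 for DAMTC replicates 1 to 3 and 10.94, 9.339 and 8.585 for control replicates 1 to 3.

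Background correction used nec (limma 3.58.1, R 4.3.3, offset 16), followed by quantile normalization and log2. Of 48803 probes, 27578 had 1 symbol, 13 several and 21212 were not listed. The 1 probe ID that filled a pair of rows was averaged. Probes with 1 symbol and detection p under 0.05 on at least 3 arrays, 13762 in all, were fitted with lmFit and eBayes, with Benjamini-Hochberg adjustment over all of them. Lists use the brightest kept probe of each gene, with p-values from the same fit. The path was tested on simulated data. The number of arrays limits the precision. Same-numbered arrays did not deviate together (correlations -0.44, -0.44 and -0.19), and differently numbered arrays ranged from -0.30 to 0.52. With 3 arrays a group such correlations cannot exclude a pairing. The labels state none, and the main fit used none. Named genes were all 10 members, all other KLF and SP genes, up to 4 called genes with the largest differences per further list or else the one of smallest p, and the 5 nearest genes by pattern; others named (CCL5, CDKN1A, CCND1, SIN3A, CTBP1, MAP2K5, MEF2D, SKIL and CDKN1B) were chosen after their values were seen. Members and lists were chosen with earlier results of these data known. Promoter letters came from RefSeq. Alternatives covered background, normalization, filter, probe rule, variances, array weights, a replicate block, left-out arrays and the threshold.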

Additional observations from a re-analysis of the deposited data

How the results depend on the processing

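Of the comparisons of the KLF probes under 23 alternatives, 245 kept their side of the threshold, 18 lost a call, 3 gained one and 0 called differences changed sign. The 245 include probes that were never called and their sign changes. Only a probe called as reported could lose a call, and the 18 losses fell on KLF2, KLF13 and KLF4 ILMN_2137789. KLF2 was called in 22 of 23 alternatives, with an adjusted p of up to 0.0490 in limma. KLF3 ILMN_2048507 was called in all 22 that tested it. The alternative that did not test it required detection on all 6 arrays, which this probe did not meet. KLF13 was called in 16 of 23 and KLF4 ILMN_2137789 in 13 of 23. KLF probes called higher and lower numbered 2 and 2. The higher count was 1 with median scaling, with no normalization, with the deposited values not normalized again and with detection on all 6 arrays, and 4 with array weights. At adjusted p under 0.01 it was 1 higher and 0 lower. With 1 array left out it ranged from 1 to 3 higher and from 1 to 2 lower. Over all probes, 1688 were higher and 1677 lower as reported; 2617 were lower with median scaling, 1094 higher and 2556 lower with no normalization, 2910 and 3076 with array weights, and 863 and 724 at adjusted p under 0.01. With 1 array left out these ranged from 902 to 2256 higher and from 924 to 2162 lower. Median scaling, no normalization and the deposited values not normalized again put the median difference of all probes at -0.24, -0.24 and -0.18, against -0.02, and 30.6%, 30.0% and 37.0% of calls were higher, against 50.2%. Of the related genes, 10 were higher and 8 lower; 15 were lower with median scaling and 15 with no normalization, and 6 were higher and 2 lower at adjusted p under 0.01, with 6 to 14 higher and 3 to 9 lower when 1 array was left out. With the replicate number as a block, 1 KLF probe was higher and 1 lower, 1015 and 1001 of all probes, and 5 related genes were lower; the KLF2 and KLF3 calls held and the KLF4 and KLF13 calls did not (limma, adjusted p = 0.0707 and 0.0713). With array weights KLF5 and KLF10 ILMN_1667594 were called too. The cause of these shifts was not tested, beyond the fewer arrays or stricter limit that some alternatives set. Probes near background, KLF3 ILMN_2048507, KLF4 ILMN_1779857 and KLF10 ILMN_2411897 among them, have differences that the background step limits. That of KLF4 ILMN_1779857 was 0.17 with no background correction and 0.85 with background subtraction.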
